A study of Mus musculus with 6 samples.

Results

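The Hippo pathway is a kinase cascade that holds the coactivators YAP and TAZ out of the nucleus. The MST kinases activate the LATS kinases, which phosphorylate YAP and TAZ, and unphosphorylated YAP and TAZ enter the nucleus and bind the TEAD transcription factors at their target genes. The pathway is regulated mainly by phosphorylation and by the location of YAP, neither of which is seen in RNA, so the RNA of the pathway genes and the RNA of their targets are separate measurements. The 10 genes below were followed here: 6 pathway parts, namely Yap1 (YAP), Wwtr1 (TAZ), Tead1, Stk3 (MST2), Lats1 and Lats2, and 4 direct YAP/TEAD target genes, namely Amotl2, Ankrd1, Ctgf and Cyr61. They were named as core genes of the pathway with earlier results of these data known, and all 10 are among the 21878 gene symbols of the deposited table. Ctgf and Cyr61 are older symbols for Ccn2 and Ccn1.

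RNA was measured in 6 input libraries, the part of each RNA sample that is sequenced without the immunoprecipitation of methylated RNA. They came from HT22, an immortalized mouse hippocampal neuronal cell line kept in serum-containing medium, which is a single line and not neurons of an animal. The control group (n = 3) received no aluminum. The study defines its control as medium alone and keeps cells given maltol, the ligand that dissolves the metal, as a separate group, so an effect of the ligand and one of aluminum cannot be told apart in these libraries. The Al group (n = 3) was treated with 120 µM aluminum maltolate. The study's general exposure was 24 h, but the duration for the sequenced cells is not stated, and the Al libraries carry the letter M in the labels. The replicates are labelled as biological, without saying what separated them. The P values below set a group difference against the spread among these replicates, with information shared across genes. Whether that spread is one between separate cultures is not known.

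The values were deposited as FPKM, a fragment count divided by transcript length and by the reads of the library. They were divided by a size factor for each library, the median ratio of its genes to their average over libraries, and the quotient is called the scaled FPKM here. The calls of higher and lower genes came from a limma fit over 12889 genes and used the thresholds of the study, P under 0.05 before adjustment and a log2 fold change beyond 0.58 in either direction. Of these genes, 26.2% were called higher in the Al group and 24.4% were called lower, and the 3 Al values lay wholly above or wholly below the 3 control values for 68.1%. A call or a gap between the groups was therefore common in these libraries, and the counts below are to be read against those shares.

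The libraries differed in depth and composition in step with treatment. The FPKM rest on 38059492 to 44556768 reads in the controls and on 21125631 to 26670978 after Al, and each of the 10 genes had at least 2153 reads in every control library and 140 in every Al library. The 50 most abundant genes took 18.0% to 19.4% of the summed FPKM in control cells and 30.0% to 32.5% in Al-treated cells. Of 9 neuronal markers, Tubb3 was the 1 with a mean FPKM of at least 1 and 2 were at 0 in all 6 libraries. Their summed scaled FPKM was 4.60 to 4.96 in control cells and 3.27 to 5.08 in Al-treated cells. The 4 fibroblast markers summed to 1709 to 2685 in control cells and 3030 to 4298 in Al-treated cells, nearly all of it Col1a1 and Col1a2. Col1a1 was called higher in the Al group (log2 fold change 0.92), Col1a2 was not called (0.47), and Pdgfra and Lum were called lower. The 4 astrocyte markers summed to 11.8 to 19.4 and to 1.89 to 2.80, carried by Slc1a3, and Aqp4 was at 0 in every library. Gfap was too low to be tested, at 0, 0 and 0.0188 scaled FPKM in the controls and 0.126, 0.0966 and 0.0623 after Al. The 4 microglial markers summed to 33.5 to 41.4 and to 23.8 to 90.5, carried by Tmem119. Of the microglial markers Cx3cr1 was called higher after Al. Aif1 went the other way without a call (log2 fold change -0.71), and Tmem119 and Csf1r were not called. The 4 oligodendrocyte markers summed to 0.171 to 0.302 in the controls and 0.496 to 1.36 after Al, with Sox10 called higher. The 3 endothelial markers summed to 0.00348 to 0.139 and to 0.396 to 0.462, with Pecam1 called higher, and neither of these sums overlapped between the groups. The part of composition, depth and these markers in the results below was not tested. In bulk RNA, fewer cells of a kind and less RNA per cell cannot be told apart.

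YAP and TAZ reach DNA through TEAD factors, which bind a short sequence with the core GGAATG, read on either strand as GGAATG or CATTCC. The 250 bases before a transcript start, which need not be the outermost start of the gene, were found for 7 of the 10 genes in the RefSeq promoter table (GRCm38.p6). Of these 7, 5 held the core, against 12.6% of all 27025 promoter windows searched (3414). Windows for Ctgf, Tead1 and Stk3 were not analysed here. The sites are printed below with the core in capitals, 5′ to 3′ on the strand of the gene, because TEAD factors are the way the coactivators reach DNA.

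Cyr61, 1 site 103 bases before the start, whole 250-base window, chr3:145649986-145650235, minus strand: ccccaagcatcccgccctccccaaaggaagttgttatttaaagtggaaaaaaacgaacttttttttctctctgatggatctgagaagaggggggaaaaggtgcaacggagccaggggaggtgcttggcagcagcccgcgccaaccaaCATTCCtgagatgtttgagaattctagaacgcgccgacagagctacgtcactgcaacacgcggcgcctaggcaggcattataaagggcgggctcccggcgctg
Ankrd1, site 210 bases before the start, chr19:36120037-36120066, minus strand: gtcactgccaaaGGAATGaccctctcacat
Ankrd1, site 123 bases before the start, chr19:36119950-36119979, minus strand: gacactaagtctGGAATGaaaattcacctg
Amotl2, site 65 bases before the start, chr9:102717727-102717756, plus strand: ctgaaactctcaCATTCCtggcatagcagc
Yap1, site 141 bases before the start, chr9:8004720-8004749, minus strand: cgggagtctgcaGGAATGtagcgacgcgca
Wwtr1, site 136 bases before the start, chr3:57576029-57576058, minus strand: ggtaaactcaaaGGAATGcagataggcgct

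The 3 target genes with a window all held the core, and so did both coactivator genes, while the windows of Lats1 and Lats2 did not hold these letters. The sites of Ankrd1 and Amotl2 lie in exons of other transcript models of GENCODE vM21. The Lats1 window overlaps an exon as well, and the Lats2 window lies inside the gene as annotated there. A single window was searched for each gene, so other starts of these genes were not covered. A match of letters is a description of the window and no measurement of binding.

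All 4 target genes were higher after Al, and the 6 pathway parts held calls in both directions. Of the targets, 4 of 4 were called higher, with a median log2 fold change of 1.48, and 3 of 4 with FPKM as deposited or quantile normalization and 2 of 4 with TPM. Of the parts, 1 was called higher (Lats2), 2 were called lower (Stk3 and Tead1) and 3 were not called (Yap1, Wwtr1 and Lats1), with a median of -0.17. With FPKM as deposited 0 parts were higher and 3 lower, and with TPM 0 and 4. Over all tested genes the median was 0.03, and 26.2% were called higher and 24.4% lower. Every call among the 10 genes also had a Benjamini-Hochberg adjusted P under 0.05 over all tested genes in limma. For 9 of the 10 genes the groups did not overlap, 5 with the Al libraries above and 4 with them below. Such a gap was found for 68.1% of all tested genes. With 3 libraries against 3, an exact permutation test of a single gene cannot give a P below 0.1, so the P values below come from the limma fit across genes.

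**Figure D1:**
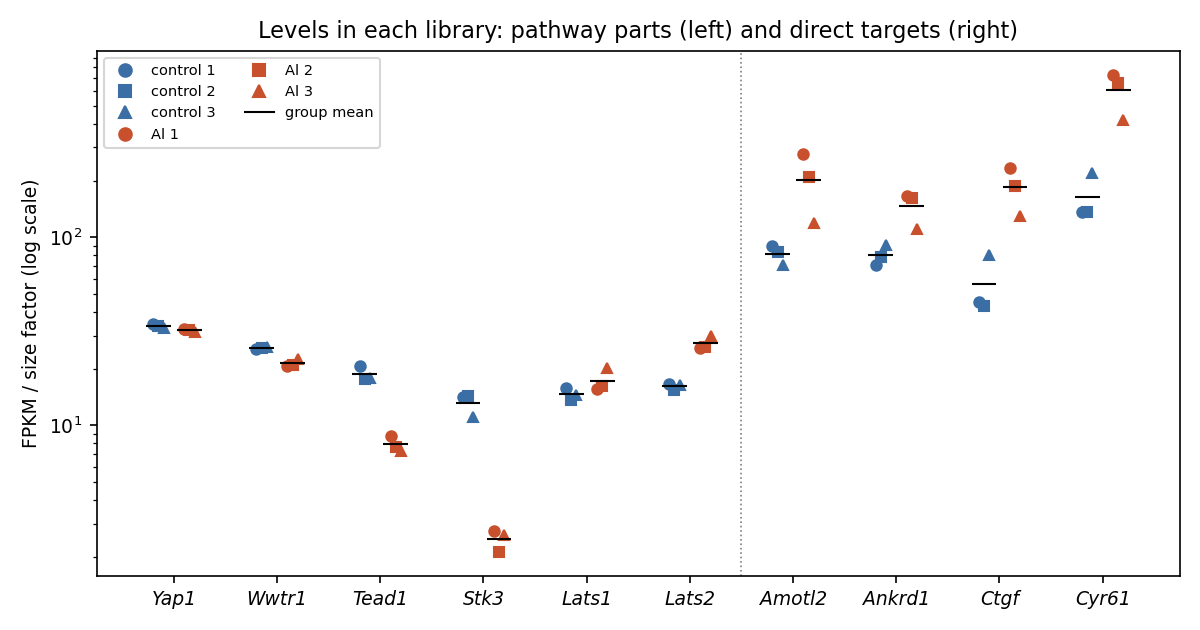
Scaled FPKM (log axis) of the 6 pathway parts, left of the dotted line, and the 4 direct targets, right of it, in each of the 6 libraries, with control in blue, Al in orange, a symbol for each replicate and a bar for the group mean. The Al libraries lie above the controls for all 4 targets and for Lats2, and Stk3 shows the widest gap downwards.

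Yap1 (chr9:7931999-8004596, minus strand, GRCm38 as in GENCODE vM21, like the positions of genes that follow) encodes YAP, the coactivator that the cascade restrains. Its scaled FPKM was 34.5, 33.9 and 32.9 in the controls and 32.6, 32.0 and 31.4 after Al. The groups did not overlap, yet the step between them was narrow, and limma put the log2 fold change at -0.08 (standard error 0.08, 95% interval -0.27 to 0.12, limma adjusted P = 0.446). The interval leaves no room for a change of the size of the call threshold under this scaling. Wwtr1 (chr3:57455649-57575910, minus strand) encodes TAZ, the paralog of YAP. It had 25.5, 25.9 and 25.9 in the controls and 20.7, 21.0 and 22.5 after Al. Every Al library was below every control, and the log2 fold change of -0.27 (standard error 0.09, limma adjusted P = 0.0245) was short of the fold threshold. Other scalings put the coactivators lower, and Wwtr1 was called at -0.76 in deposited FPKM and -1.05 in TPM, and Yap1 at -0.86 in TPM. The 2 coactivators together came to 59.5 ± 0.642 scaled FPKM in control cells and 53.4 ± 0.483 in Al-treated cells (SD, n = 3 each). The share of Wwtr1 in that sum was 43.3% ± 0.786 and 40.1% ± 1.50, again without overlap between the groups.

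Tead1 (chr7:112679318-112906807, plus strand) encodes one of the 4 TEAD factors through which YAP and TAZ act on DNA. It was measured at 20.7, 17.6 and 17.9 scaled FPKM in the controls and at 8.76, 7.67 and 7.32 after Al. The highest Al value was less than the lowest control value, and Tead1 fell by 1.23 in log2 terms (standard error 0.12, limma adjusted P = 4.49e-05). The other 3 TEAD genes, taken from the list of further pathway genes, were called lower as well. Tead2, the most abundant of the family, went from 37.7 ± 2.43 to 20.3 ± 1.98 scaled FPKM, a log2 fold change of -0.89. Tead3 had a log2 fold change of -0.66 and Tead4 of -0.97 (limma adjusted P = 0.00983 and 0.0113), and the call of Tead3 was lost with quantile normalization (-0.51), without control replicate 1 (-0.58) and without Al replicate 2 (-0.55). The summed TEAD level was 70.7 ± 3.38 in control cells and 36.6 ± 1.06 in Al-treated cells, and the share of Tead1 in it went from 26.5% ± 2.03 to 21.6% ± 1.51. The share of Tead2 was 53.4% ± 2.24 and 55.4% ± 3.90, and there the groups overlapped.

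Stk3 (chr15:34875496-35178921, minus strand) encodes MST2, an upstream kinase of the cascade and the counterpart of Hippo in the fly. Its scaled FPKM was 14.1, 14.4 and 11.1 in the controls and 2.75, 2.12 and 2.62 after Al. These values rest on 2361, 2793 and 2153 reads against 218, 140 and 191. The Al libraries were tightly grouped at 0.189 of the control mean, and Stk3 fell by 2.36 in log2 terms (standard error 0.15, limma adjusted P = 1.17e-05), the most of the 10 genes. Its paralog Stk4 (MST1) had 6.51 ± 0.0225 and 6.18 ± 0.857 scaled FPKM with overlapping groups, a log2 fold change of -0.08 (limma adjusted P = 0.604). Stk3 made up 66.8% ± 3.20 of the 2 MST genes in control cells and 28.8% ± 1.67 in Al-treated cells. The more abundant MST gene was thus Stk3 in every control library and Stk4 in every Al library, and the sum of both was 19.7 ± 1.83 and 8.68 ± 1.14.

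Lats1 (chr10:7681214-7716460, plus strand) and Lats2 (chr14:57689662-57758388, minus strand) encode the kinases that phosphorylate YAP and TAZ directly, and Lats2 is itself known as a target of YAP in several cell types. Lats1 had 15.8, 13.7 and 14.4 scaled FPKM in the controls and 15.6, 16.1 and 20.1 after Al. It was the 1 gene of the 10 whose groups overlapped, with a log2 fold change of 0.23 (95% interval -0.05 to 0.51, limma adjusted P = 0.136) that turned to -0.26 with FPKM as deposited and to -0.55 with TPM. Lats2 had 16.5, 15.4 and 16.4 in the controls and 25.7, 26.1 and 29.9 after Al. The replicates were close within each group and the groups were well apart, and Lats2 rose by 0.75 (standard error 0.10, limma adjusted P = 0.000247), a difference that shrank to 0.27 in deposited FPKM and to -0.03 in TPM. Of the summed LATS level, on the size-factor scale 30.7 ± 1.62 in control cells and 44.5 ± 4.76 in Al-treated cells, Lats2 took 52.4% ± 1.09 and 61.3% ± 1.33. That share and the Lats2 to Lats1 ratio are the same under any single factor per library, and neither overlapped between the groups.

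**Figure D2:**
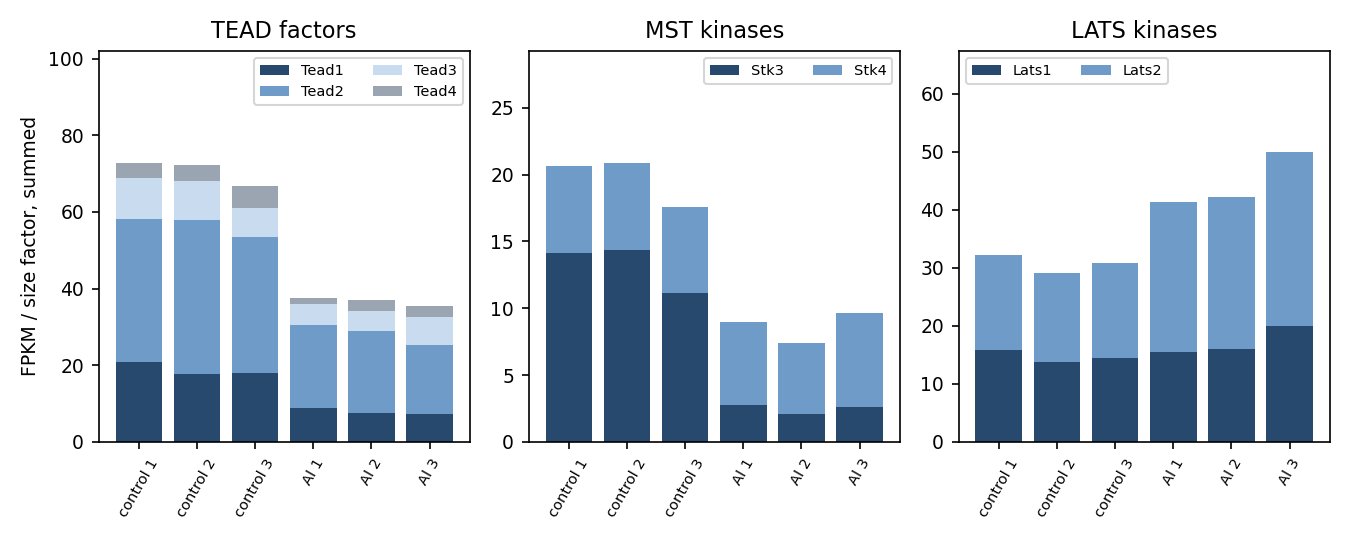
Scaled FPKM of the TEAD, MST and LATS genes stacked in each library, control at left and Al at right in each panel, with axes that start at 0. The summed TEAD and MST levels are lower in every Al library, the Stk3 part of the MST bar shrinks while the Stk4 values of the groups overlap, and the Lats2 part of the LATS bar grows.

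Ctgf (chr10:24595442-24598683, plus strand) and Cyr61 (chr3:145646976-145649981, minus strand) encode secreted matricellular proteins of the CCN family and are the most used readouts of YAP activity. Ctgf had 45.3, 43.1 and 80.5 scaled FPKM in the controls and 234, 188 and 130 after Al. Control replicate 3 was the highest control and Al replicate 3 the lowest Al library, yet the groups stayed apart, and Ctgf rose by 1.72 (standard error 0.28, limma adjusted P = 0.000722), a 3.26-fold difference of the means. Cyr61 had 136, 136 and 220 in the controls and 732, 661 and 418 after Al. The order of the libraries was much the same as for Ctgf, with control replicate 3 and Al replicate 3 nearest to each other, and Cyr61 rose by 1.88 (standard error 0.26, limma adjusted P = 0.000362), or 3.68-fold. Cyr61 was the most abundant of the 10 genes per length in both groups.

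Amotl2 (chr9:102716672-102733418, plus strand) encodes angiomotin-like 2, which binds YAP and holds it in the cytoplasm and is at the same time transcribed under YAP and TEAD. It had 90.2, 83.9 and 71.0 scaled FPKM in the controls and 278, 208 and 120 after Al. The Al replicates were spread over more than a doubling, with replicate 3 nearest to the controls, and Amotl2 rose by 1.23 (standard error 0.27, limma adjusted P = 0.00404), a call that TPM took away at 0.44 and that quantile normalization left at the threshold (0.58). Ankrd1 (chr19:36111961-36120099, minus strand) encodes an ankyrin repeat protein of the nucleus and the sarcomere. It had 71.4, 78.0 and 90.8 in the controls and 166, 162 and 111 after Al. Ankrd1 rose by 0.85 (standard error 0.17, limma adjusted P = 0.00265), the least of the 4 targets. Its call was the one most bound to the scaling, with 0.36 from FPKM as deposited, 0.25 from quantile normalization and 0.06 from TPM. Its deposited FPKM overlapped, at 84.6, 94.3 and 107 in the controls and 133, 132 and 103 after Al.

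Al replicate 3 was the lowest Al library for all 4 targets and the highest for Wwtr1, Lats1 and Lats2. Leaving out each of the 6 libraries in turn kept the call of each of the 10 genes. Over these fits the log2 fold change of Ctgf ranged from 1.54 to 2.0, that of Cyr61 from 1.72 to 2.13, that of Amotl2 from 0.96 to 1.58 and that of Ankrd1 from 0.75 to 1.05. For the parts, Stk3 ranged from -2.48 to -2.24, Tead1 from -1.30 to -1.17, Lats2 from 0.70 to 0.80 and Yap1 from -0.11 to -0.05.

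The scaling between libraries moved the split of the calls between higher and lower. The median over the tested genes shifted by -0.46 when FPKM were left as deposited and by -0.75 under TPM, which sets every library to the same sum. The share of higher genes among all called genes was 51.8% with size factors, 25.0% with deposited FPKM, 14.9% with TPM and 47.7% with quantile normalization. Of the 10 genes, 5 were higher and 2 lower with size factors, 3 and 3 with deposited FPKM, 2 and 4 with TPM, and 4 and 2 with quantile normalization. Size factors, deposited FPKM and TPM differ by 1 factor per library, so they move the genes together. Quantile normalization can move single genes, and there Cyr61 lay 1.10 above the median of all tested genes, where it was 1.85 with size factors. Ctgf lay 1.21 above it in place of 1.69, Amotl2 0.61 in place of 1.20, Ankrd1 0.28 in place of 0.82, and Lats2 0.64 in place of 0.72. Yap1 was at -0.31 in place of -0.11. Which scaling holds for the absolute amount of RNA per cell was not measured in these libraries.

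**Figure D3:**
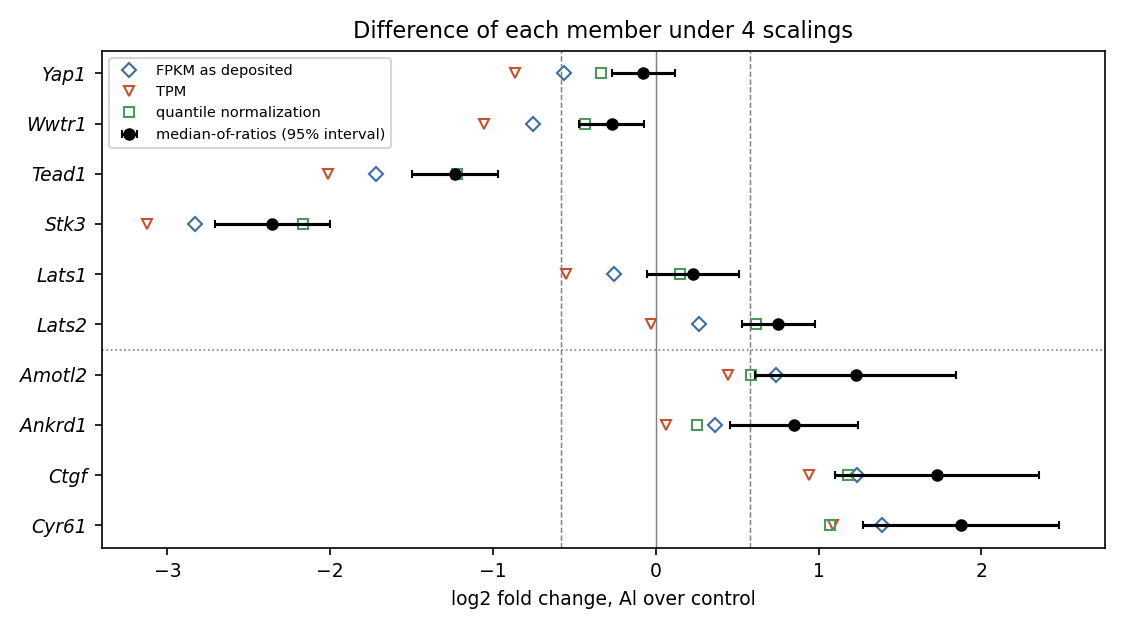
Log2 fold change (Al over control) of the 10 genes, pathway parts above the dotted line and targets below it, with size factors as black points with 95% intervals, and with 3 other scalings as open symbols; dashed lines mark the fold threshold of the call. Deposited FPKM and TPM lie to the left of the size-factor value for each gene, Stk3 and Tead1 remain past the lower threshold, and Ctgf and Cyr61 past the upper threshold, under all 4.

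Ratios of genes inside a library do not change with a single factor per library. The log2 ratio of Ctgf to Yap1 was 0.39, 0.35 and 1.29 in the controls and 2.84, 2.55 and 2.05 after Al, a difference of means of 1.80. For Cyr61 to Yap1 it was 1.98, 2.0 and 2.75 against 4.49, 4.37 and 3.74, a difference of 1.96. The ratios of Amotl2 and Ankrd1 to Yap1 differed by 1.31 and 0.93. All 4 targets thus stood higher relative to Yap1 in each Al library than in any control library. Among the parts, the log2 ratio of Wwtr1 to Yap1 differed by -0.19 and that of Lats2 to Lats1 by 0.53, both without overlap. Quantile normalization, which acts on each gene by its rank, gave smaller differences from Yap1, at 1.52 for Ctgf, 1.41 for Cyr61, 0.92 for Amotl2 and 0.59 for Ankrd1. It put the difference at -0.10 for Wwtr1 to Yap1 and at 0.47 for Lats2 to Lats1. A ratio shows that 2 genes changed unequally and not which of them changed.

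**Figure D4:**
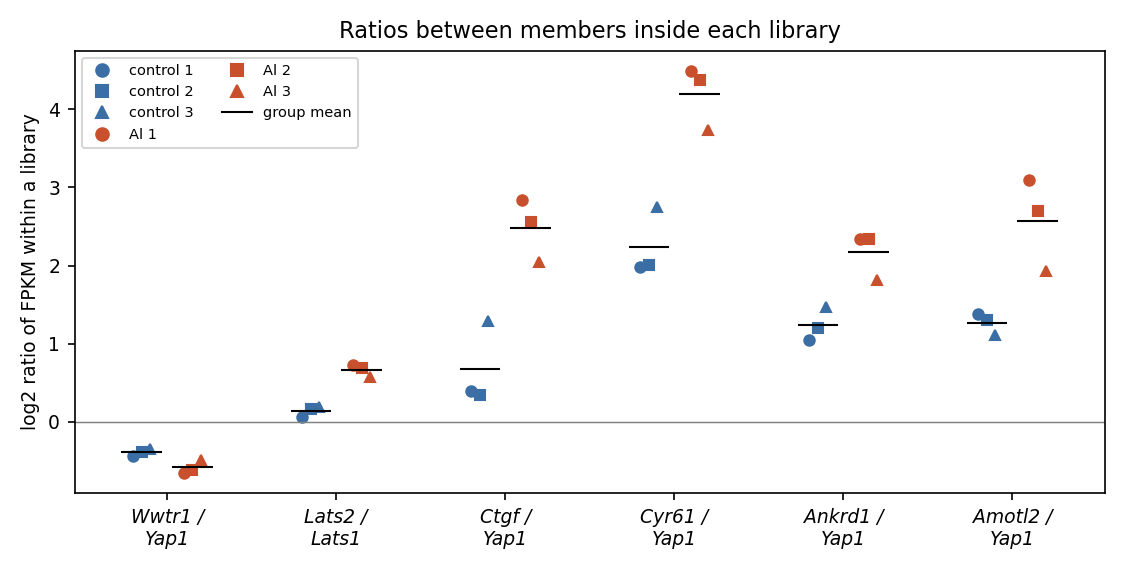
Log2 ratio of the FPKM of pairs of genes within each library, control in blue, Al in orange, a symbol for each replicate and a bar for the group mean. The 4 target to Yap1 ratios and the Lats2 to Lats1 ratio are higher in all Al libraries, and the Wwtr1 to Yap1 ratio is lower.

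The transcript lengths behind the FPKM could be read from the values. The 4 targets were shorter (Ankrd1 1765, Cyr61 2028, Ctgf 2403 and Amotl2 4662 bases) than most parts (Stk3 3704, Yap1 4189, Wwtr1 4784, Lats2 5554, Lats1 7667 and Tead1 10045 bases). When the genes that averaged 1 FPKM or more were cut by length into 5 equal bins, the median log2 fold change went from 0.26 in the bin of the shortest to -0.23 in the bin of the longest. The part of length in the contrast of targets and parts was not tested. Exons of Yap1, Lats2 and Ctgf overlap exons of genes that the table does not list, on the same strand for Lats2 (Gm49361) and on the opposite strand for Yap1 (Gm20416) and Ctgf (Gm15270). The library kit was stranded, and whether the counting used the strand is not given in the sources used here, so reads of these pairs may not be separated.

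Of 29 further pathway genes, 28 were tested, with a median of -0.26. In this list 6 were called higher, 10 lower and 12 not (over all tested genes 26.2% higher and 24.4% lower). With FPKM as deposited 2 were higher and 16 lower, and with TPM 0 and 21, so the calls of higher genes in this list rest on the scaling. Among the 10 kinases and adaptors, 1 was higher and 4 were lower. Sav1, the scaffold that binds the MST kinases, rose from 21.2 ± 1.27 to 44.1 ± 2.0 scaled FPKM, a log2 fold change of 1.05 (limma adjusted P = 3.5e-05) that came to 0.57 in deposited FPKM and 0.27 in TPM. Stk38, a kinase of the LATS family also known as NDR1, fell by 0.92 (limma adjusted P = 0.00318), with Al replicate 3 at 8.38 and the other 2 at 5.21 and 4.85. The kinase side thus held genes called in both directions, and so did the regulators upstream of it. Of the 7 upstream regulators tested, 4 were higher and 1 was lower, and Fat4 was too low to be tested.

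Fat1, an atypical cadherin, rose from 81.5 ± 8.80 to 187 ± 6.43 scaled FPKM, a log2 fold change of 1.20 (limma adjusted P = 5.47e-05) that was 0.42 with TPM. Rassf1, a scaffold that binds MST kinases, rose by 0.98 (0.19 with TPM). Wwc2, a relative of KIBRA, rose by 0.64, but stood at -0.14 with TPM and lost its call without Al replicate 1 (0.54). Dchs1, a cadherin at a mean FPKM under 1, was the other upstream gene called higher, and its call was lost without control replicate 1, without control replicate 3 and without Al replicate 3 (0.91, 0.80 and 0.72). Nf2, which encodes merlin and recruits the LATS kinases to the membrane, fell by 1.20 (28.6 ± 1.03 to 12.4 ± 0.752 scaled FPKM, limma adjusted P = 2.11e-05). Among the 8 inhibitors and binders of YAP or LATS, 1 was higher and 2 were lower. Ajuba, a LIM protein that inhibits LATS, rose by 1.12 (limma adjusted P = 0.000489), which was 0.33 with TPM. The 2 that were lower are the paralogs of Amotl2, with Amotl1 at -1.53 (limma adjusted P = 1.14e-05) and Amot at -0.96 (limma adjusted P = 0.000927). Within the angiomotin family the 3 genes therefore did not move one way, Amotl2 being higher and the other 2 lower.

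The 16 further target genes were called in both directions, in shares near those of all tested genes. Of these, 14 were tested, 3 were called higher, 4 lower and 7 not (over all genes 26.2% higher and 24.4% lower), with a median of 0.17, and Igfbp3 and Fjx1 were at 0 in all 6 libraries. With FPKM as deposited 2 were higher and 4 lower, and with TPM 2 and 9. Nuak2, a kinase of the AMPK family, rose by 1.56, from 8.72 ± 0.528 to 26.9 ± 9.46 scaled FPKM (limma adjusted P = 0.000359). Crim1, a transmembrane protein that binds BMPs, rose by 0.87 (limma adjusted P = 0.00611), with Al values of 100.3, 74.3 and 52.7, and was at 0.08 with TPM. The remaining one was Tgfb2, a TGF-β ligand, which had a mean FPKM under 1 and is named after its values were seen. It had 0.0734, 0.0982 and 0.0598 scaled FPKM in the controls and 1.41, 1.41 and 1.61 after Al.

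Arhgef17, a guanine nucleotide exchange factor, fell by 1.52 (28.5 ± 3.11 to 9.91 ± 1.53 scaled FPKM, limma adjusted P = 3.63e-05). Asap1, an ARF GTPase-activating protein, fell by 0.97 and F3, tissue factor, by 0.81 (limma adjusted P = 0.000183 and 0.00406). Rbms3, an RNA-binding protein with a mean FPKM under 1, was the other gene called lower, at -1.80.

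**Figure D5:**
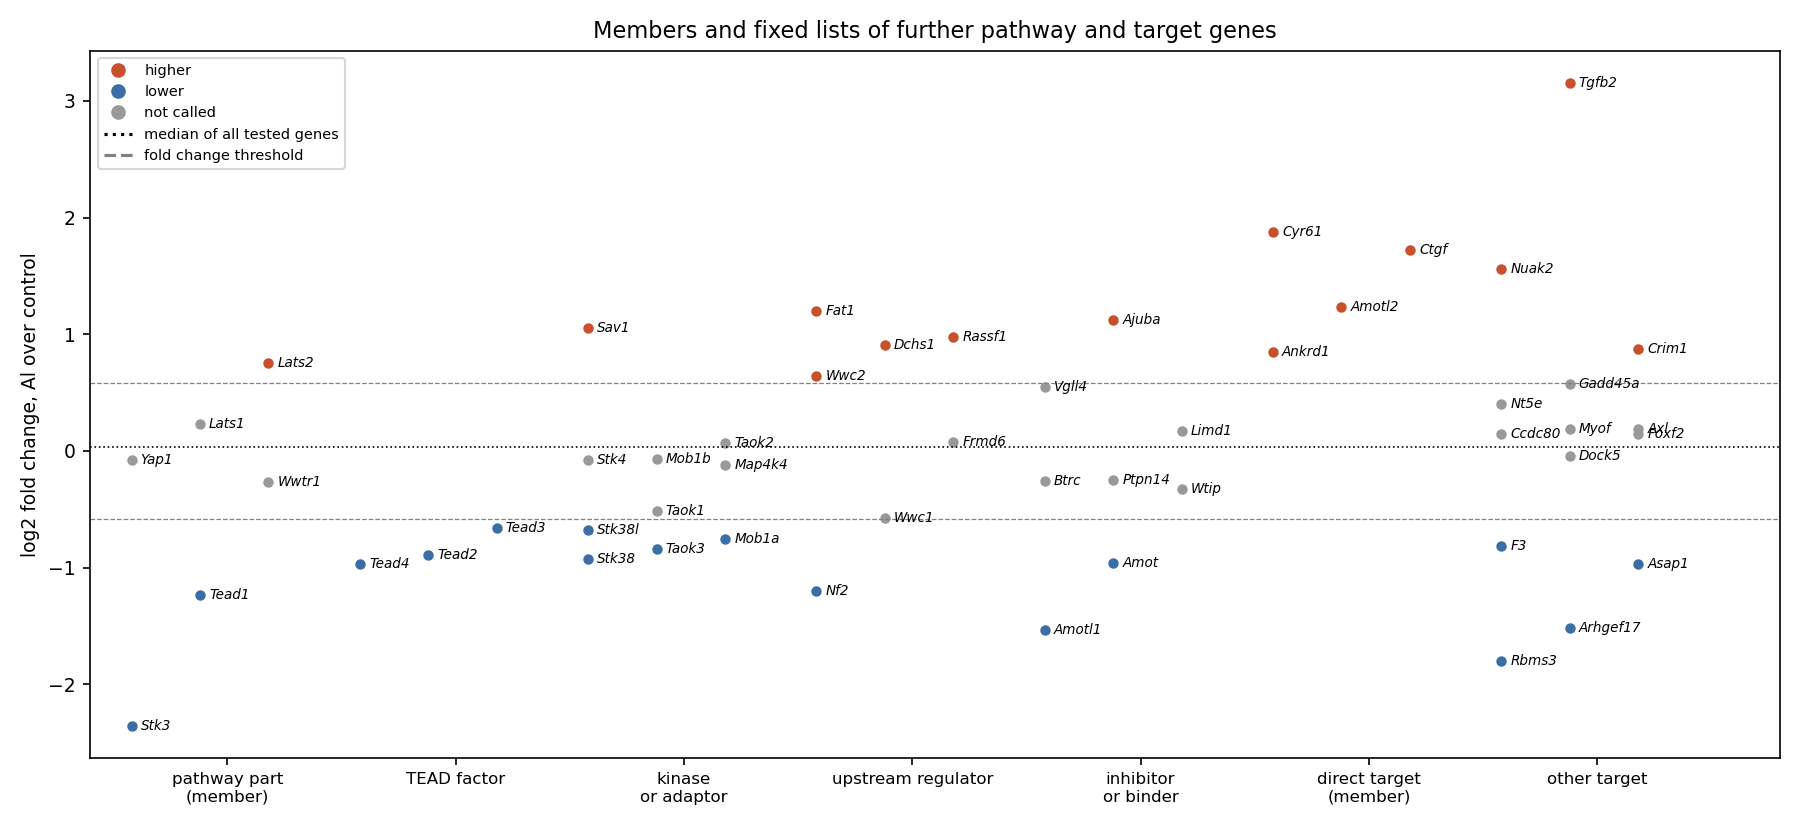
Log2 fold change (Al over control) of the 10 genes and of the tested genes of the further pathway and target lists, in columns by role; the horizontal place within a column has no meaning, colours give the call, dashed lines the fold threshold and the dotted line the median of all tested genes (0.03). All 4 direct targets are above the threshold, all 4 TEAD genes are below the lower one, and the other columns with more than 3 genes hold calls in both directions.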

How the data were processed

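The 6 input libraries of HT22 cells (3 control, 3 Al) were analysed. Treated libraries are labelled M, and were taken as Al because the study's supplementary tables use both letters for the same columns. The authors deposited FPKM values for 21878 gene symbols. Their paper names Trimmomatic, SortMeRNA, HISAT2 and GRCm38/mm10, the submitters' processing notes name fastp, HISAT2, HTSeq and GRCm39, and the series text names another genome, so the build behind the table is unsure; the coordinates printed here are GRCm38. Each FPKM is a whole number of reads divided by a length and a library total, from which whole reads, lengths and totals were recovered (17688 of 17688 genes with a value above 0). The authors used DESeq2 on counts, while the deposited unit called for limma 3.58.1 (R 4.3.3), with lmFit and eBayes with trend on log2(FPKM/size factor + 0.1) for genes averaging 0.1 FPKM or more. Fold changes are on that scale, which understates low genes, and P values were adjusted over 12889 genes by the Benjamini-Hochberg method. On simulated data of 12633 genes with 200 changed by a log2 fold change of 2, the fit called 200 of the 200 and 77 unchanged genes.

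The members and lists were chosen with earlier results of these data known. All 10 members are named, as are, of each other list, called genes without overlap and with a mean FPKM of at least 1 (at most 5 higher and 5 lower) and genes at 0 throughout; paralogs of members and Fat4, Dchs1, Tgfb2, Rbms3, Cnn1 and Srf, and the summary of lengths, were added after their values were seen. Alternatives changed the scaling, pseudocount, filter, trend, block, libraries, thresholds or unit (limma voom on recovered reads). Values are mean ± SD. Immunoprecipitated libraries were not analysed here.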

Additional observations from a re-analysis of the deposited data

How the results depend on the processing

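Under 16 alternatives, 149 of 160 member results kept their direction and their side of the threshold. Every exception came from scaling, in a tally that leaves out changes of the P or fold threshold. With FPKM as deposited, 3 members were called higher, Lats1 turned to -0.26, Wwtr1 passed the threshold at -0.76, Lats2 (0.27) and Ankrd1 (0.36) lost their calls, and the medians were -0.66 for the parts and 0.99 for the targets. With TPM, 2 members were called higher and 4 lower, 2 of the direct targets and 11 further targets were called, Lats1 turned to -0.55 and Lats2 to -0.031, Yap1 (-0.86) and Wwtr1 (-1.05) were called lower, Amotl2 (0.44) and Ankrd1 (0.06) lost their calls, and the medians were -0.96 and 0.69. With quantile normalization the medians were -0.38 and 0.83, and Ankrd1 lost its call at 0.25. The shifts with FPKM as deposited and TPM follow those of the median of all genes; the cause of those with quantile normalization was not tested. A fold threshold of 1, outside that tally, took the calls of Lats2 and Ankrd1 and left 3 members higher. It left 5 further pathway genes, 4 further targets and 4 SRF/MRTF targets called. Leaving out 1 library gave 4 to 8 called SRF/MRTF targets, 4 without Al replicate 3, and the cause was not tested. Same-numbered replicates did not deviate together (r of -0.08, -0.06 and -0.11), which does not tell whether they were prepared together. With a replicate block 5 members were higher and 2 lower, and 4 direct targets and 3 parts were called. Over all genes 3352 were higher and 3123 lower with that block. Limma voom on the recovered reads also gave 5 higher and 2 lower members. Each target had 3859 reads or more in every Al library, and the part of depth in the results was not tested.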

Other observations

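SRF and its MRTF coactivators share several target genes with YAP and respond to the state of actin. Of 12 SRF/MRTF target genes, 11 were tested, with a median log2 fold change of 0.14. Among these 3 were called higher, 4 lower and 4 not (over all tested genes 26.2% higher and 24.4% lower). Actb, cytoplasmic β-actin, had 2381, 2174 and 2350 scaled FPKM in the controls and 7173, 6707 and 4136 after Al, a rise of 1.34 (limma adjusted P = 0.0182) that turned to -0.35 with quantile normalization and lost its call without control replicate 2 (1.29). Al replicate 3 was again the lowest of its group, as for the 4 YAP targets. Tagln, transgelin, rose by 1.43 from a low level (0.792 ± 0.118 to 2.30 ± 0.355 scaled FPKM), and Cnn1, calponin 1, was called higher at a mean FPKM under 1. Actg1, the γ-actin of the same cytoskeleton, fell by 0.64, from 377 ± 27.9 to 241 ± 24.4 scaled FPKM (limma adjusted P = 0.00443). Zyx, the focal adhesion protein zyxin, fell by 1.08 (limma adjusted P = 2.53e-05), Cnn2, calponin 2, by 0.99 and Tpm1, tropomyosin 1, by 0.66. Without Al replicate 3 the calls of Actg1 (-0.55), Cnn2 (-0.54) and Tpm1 (-0.42) were lost. With TPM 2 of the 11 genes were higher and 8 lower. Srf itself was at 0.16 and was not called.

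Among 10348 genes that averaged 1 FPKM or more, the pattern over the 6 libraries nearest to that of Ctgf, by root mean square difference of log2 levels set relative to the control mean, was that of Cyr61 (0.133). It was followed by Ces2g (0.149), a carboxylesterase, Ftl1 (0.172), the ferritin light chain, Llph (0.199) and Myl12a (0.201), a myosin regulatory light chain. Ftl1 had 1999, 1893 and 2596 scaled FPKM in the controls and 8459, 8317 and 5300 after Al, with control replicate 3 the highest control and Al replicate 3 the lowest Al library, as for Ctgf. The genes nearest to Yap1 were AI314180 (0.0326), Aco1 (0.0355), Map4k4 (0.0364), Snapc2 (0.0374) and Traf4 (0.0414). Of these Map4k4 is a kinase upstream of LATS and one of the further pathway genes, with 57.2, 57.5 and 54.5 scaled FPKM in the controls and 53.2, 50.6 and 52.2 after Al. The points of each pattern share the same 6 libraries and size factors, and likeness over them is a description.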
